A study of Homo sapiens with 12 samples.

Results

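The mitochondrial ribosome is the machine that translates the few messages of the mitochondrial genome, which encode core subunits of the respiratory chain. Its RNAs come from mitochondrial DNA, whereas its proteins are encoded in the nucleus, made in the cytosol and imported. The large subunit forms peptide bonds and passes the new chain through an exit tunnel into the inner membrane, and the small subunit decodes the message. Some of its proteins have a counterpart in the bacterial ribosome and others were added during the evolution of mitochondria. The genes described here are the 77 whose symbol has the form MRPL or MRPS followed by a number, 49 of the large and 28 of the small subunit, out of 20708 genes on the arrays. They were read by 452 probes, of which 434 were kept, and all 77 genes passed the filter on dim probes, as did 18252 genes in all. A gene rested on 1 to 11 kept probes, with a median of 5, and 1 member rested on a single probe. MRPS18A and MRPS30 carry a small subunit name but lie in the large subunit of the human mitochondrial ribosome. They were counted by name, and moving them did not change the order of the subunits in control cells.

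All arrays came from MDA-MB-231, an established line of triple-negative breast cancer, grown in culture, and each of the 4 groups had 3 arrays. Control cells are called cntrl, and cells given a miR-145-5p mimic are called mimic145. The label sirnaAGO2 stands for cells in which AGO2 was silenced by a Dicer-substrate siRNA, and sirnaAGO2+mimic145 for cells given both agents. The protocols give 5 nM for the mimic and for its negative control, 500 pM for the siRNA and for its negative control, and 72 h of silencing, without saying which control oligonucleotide each group received. Nothing says whether the arrays of a group came from separate cultures, so the p-values measure the spread between these arrays, which may be technical. The mimic carries the microRNA miR-145-5p, which guides Argonaute proteins to messages that pair with its seed. The mature sequence in RefSeq is shown here because it is the agent applied, with the seed (bases 2 to 8) in capitals.
hsa-miR-145-5p: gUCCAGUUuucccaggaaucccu

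The 6 slides carried 2 arrays each, of equal replicate number: on a slide cntrl was paired with mimic145, or else sirnaAGO2 with sirnaAGO2+mimic145. The array with the mimic was always in the second position, so position and mimic cannot be told apart, and no slide held both a silenced and a non-silenced sample. Of the spots of an array, 60.5% to 77.3% were well above background. All kept probes of the mesenchymal markers VIM, CD44, CAV1, MSN and AXL were well above background in cntrl, and of the markers expected to be low the shares ran from 3.70% of readings for PGR, 40.5% for ESR1, 45.8% for CDH1 and 49.4% for ERBB3 to 90.0% for EPCAM and 100% for KRT8, so these last genes were not absent. AGO2 fell in sirnaAGO2 to 61.0% of its level in cntrl, on all 19 of its probes (log2 change -0.71, limma adjusted p = 0.00492; by an exact permutation test, two-sided, p = 0.1, which is the smallest possible with 3 arrays against 3). AGO2 rose with the mimic in control cells by 0.28 on the log2 scale (limma adjusted p = 0.0298). The fall with silencing did not pass by limma without replicate 1, 2 or 3, or without sirnaAGO2 replicate 1 alone (-0.78 to -0.64). In RNA from whole cultures, fewer cells of a kind and less RNA per cell cannot be told apart.

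The first question was what the mimic did to these genes in control cells. The mitochondrial ribosomal protein genes were mostly higher in mimic145 than in cntrl: 60 of 77 had a higher mean (77.9%), against 52.1% of all genes tested. By limma, 29 of 77 passed at an adjusted p under 0.05 (37.7%), where 22.6% of all genes tested passed. Of these, 23 rose (29.9% of the members, against 11.6% of all genes) and 6 fell (7.79%, against 11% of all genes). The rises were small, from 0.21 to 0.76 on the log2 scale with a median of 0.36, and the falls ran from 0.35 to 1.19. For 36 members all 3 mimic145 arrays lay above all 3 cntrl arrays, where this held for 14.9% of all genes, and for 7 members all 3 lay below, where this held for 13.5% of all genes. The median log2 change over the members was 0.15, beside 0.01 over all genes, and taken within the replicate pairs it was 0.15 ± 0.05 (SD, n = 3 pairs). With scaling by the 75th percentile the median was 0.16 over the members and 0.07 over all genes, so the gap between them narrowed from 0.14 to 0.09.

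**Figure D1:**
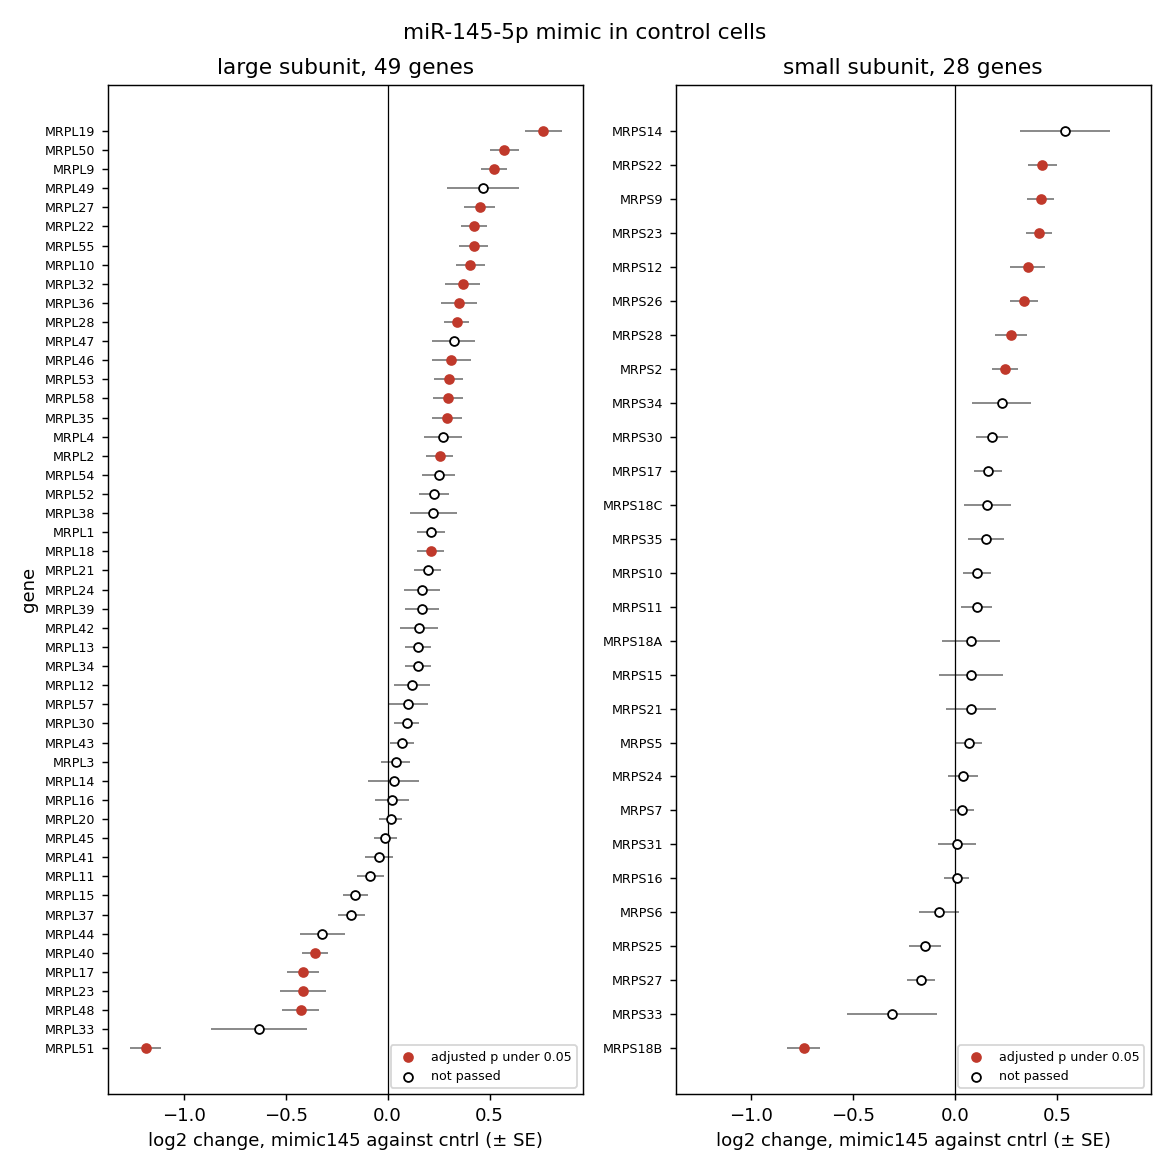
Log2 change of each mitochondrial ribosomal protein gene between mimic145 and cntrl, with its standard error from limma, for the 49 large subunit genes on the left and the 28 small subunit genes on the right. Filled points passed at an adjusted p under 0.05: 16 large and 7 small subunit genes to the right of 0, and 5 large and 1 small subunit gene to the left.

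The count of 29 varied with the arrays used. Without replicate 1 it was 7, of which 3 rose and 4 fell, without replicate 2 it was 17 and without replicate 3 it was 12. Without cntrl replicate 1 or cntrl replicate 3 alone it was 19. These counts are given without the share of all genes that passed under the same setting. A loss over all genes and a loss particular to the members thus cannot be told apart here. The median change over the members ran from 0.12 to 0.20 in these and all other alternatives tried. By the methods' t-test, paired by replicate, 36 members had an unadjusted p under 0.05 (46.8%, where 21.2% of all genes did) and 0 passed after adjustment.

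MRPL51 fell most. This protein of the large subunit has no bacterial counterpart, and its gene lies on chromosome 12 from 6491886 to 6493262 (GRCh38.p14). Its normalized log2 signal was 13.05, 12.97 and 13.04 on the cntrl arrays, 11.70, 11.91 and 11.91 on the mimic145 arrays, 12.95, 12.93 and 13.15 on the sirnaAGO2 arrays, and 12.55, 12.66 and 12.82 on the sirnaAGO2+mimic145 arrays. The mimic145 arrays lay far below every other array, and the sirnaAGO2+mimic145 arrays lay between them and the arrays without the mimic. The log2 change with the mimic was -1.19 in control cells (standard error 0.08, limma adjusted p = 6.88e-05), which leaves 43.9% of the transcript, and all 3 probes were lower, by 1.34, 1.12 and 1.10. In silenced cells the change was -0.33 (limma adjusted p = 0.0384), which leaves 79.3%. This fall kept its direction but no longer passed in 16 of 28 alternatives.

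MRPS18B, also called mS40, is one of 3 human proteins related to bacterial ribosomal protein S18, with its gene on chromosome 6 from 30617840 to 30626392. Its log2 signal was 10.40, 10.49 and 10.40 in cntrl, 9.58, 9.84 and 9.64 in mimic145, then 9.86, 10.11 and 9.93 after silencing, and 9.23, 9.53 and 9.06 with both agents. The 3 cntrl arrays were above all others and the 3 sirnaAGO2+mimic145 arrays below all others. It fell with the mimic in control cells (log2 change -0.74, limma adjusted p = 0.000489) and in silenced cells (-0.69, limma adjusted p = 0.00543). It also fell with silencing, without the mimic (-0.47, limma adjusted p = 0.0246) and with it (-0.41, limma adjusted p = 0.0263). The difference between the mimic's effects was 0.05 with a standard error of 0.11 (limma adjusted p = 0.837). All 8 probes were lower with the mimic in control cells, 7 of them by 0.74 to 0.90 and 1 by 0.07. Its homologs MRPS18A and MRPS18C, named here after their values were seen, did not pass in this comparison.

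The other 4 members that fell were MRPL48 (-0.43), MRPL23 (-0.42), MRPL17 (-0.41) and MRPL40 (-0.35). MRPL48 and MRPL40 belong to the central protuberance, the knob of the large subunit that faces the small subunit, and MRPL23 and MRPL17 to the rim of the exit tunnel. MRPL48 read 8.64, 9.12 and 8.94 in cntrl and 8.37, 8.67 and 8.38 in mimic145, so the groups overlapped although each pair was lower with the mimic, and 7 of 8 probes were lower. For MRPL17, 3 of 5 probes were lower and 2 higher, from -1.54 to 0.26, and 1 of its probes was dim, that is not well above background, on all 6 arrays that had the mimic. With the stricter filter, which dropped that probe, the change was -0.13 (limma adjusted p = 0.193). With the median over probes in place of the mean, MRPL17 was higher with the mimic, by 0.08. The RefSeq span of MRPL23 overlaps H19 and MRPL23-AS1 by coordinates, without regard to strand or exons. Whether its probes read transcripts of those genes was not tested. An overlap with another listed gene is not particular to MRPL23: it holds for 32 of the 77 members and 10 of the 29 that passed. The log2 change of MRPL23 no longer passed in 13 of 28 alternatives, and ran from -0.54 to -0.26 over the 28. For example, it did not pass without replicate 2 (-0.34) or without replicate 3 (-0.40), and did without replicate 1 (-0.51).

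Among the risen genes, MRPL19 led. It is the counterpart of bacterial L19 and lies on chromosome 2 from 75646783 to 75662206. Its log2 signal was 9.82, 10.02 and 9.97 in cntrl, 10.81, 10.59 and 10.70 in mimic145, then 10.19, 10.09 and 10.29 after silencing, and 10.53, 10.45 and 10.71 with both agents. The arrays with the mimic were above those without it in both backgrounds, and the sirnaAGO2 arrays above the cntrl arrays. The log2 change was 0.76 in control cells (standard error 0.09, limma adjusted p = 0.000653), a ratio of 1.70, with 7 of 7 probes higher by 0.01 to 1.22, and 0.37 in silenced cells (limma adjusted p = 0.0418). The rise in silenced cells no longer passed in 17 of 28 alternatives.

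MRPL50, a protein of mitochondria alone, read 10.41, 10.43 and 10.42 in cntrl and 11.09, 11.02 and 10.87 in mimic145. In silenced cells it read 10.66, 10.65 and 10.44 without the mimic and 11.01, 10.87 and 10.86 with it. It thus rose in both backgrounds without overlap, by 0.57 (limma adjusted p = 0.000824) and by 0.33 (limma adjusted p = 0.0316), on both of its probes. The rise of MRPL50 in silenced cells no longer passed in 13 of 28 alternatives. MRPL9, the counterpart of bacterial L9, read 10.09, 10.21 and 9.89 in cntrl and 10.60, 10.67 and 10.48 in mimic145, a rise of 0.52 (limma adjusted p = 0.000787) on 7 of 7 probes. In silenced cells it read 10.17, 10.25 and 10.07 without and 10.35, 10.43 and 10.07 with the mimic, and these groups overlapped (0.12, limma adjusted p = 0.248).

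The next 7 in order of size rose by 0.41 to 0.45, each in all 3 pairs and on every kept probe. They were MRPL27 (0.45), which reaches toward the site of peptide bond formation, MRPS22 (0.43), a small subunit protein of mitochondria alone whose mutation causes mitochondrial disease, and MRPL22 (0.43), which lines the exit tunnel. MRPL55 (0.42) sits in the large subunit, MRPS9 (0.42) in the head of the small subunit, MRPS23 (0.41) in the small subunit, and MRPL10 (0.41) holds the stalk that recruits translation factors. Their limma adjusted p-values ran from 0.00188 for MRPL22 to 0.00444 for MRPL10. For MRPL27, for example, the cntrl arrays read 10.94, 11.18 and 11.08 and the mimic145 arrays 11.57, 11.61 and 11.38.

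**Figure D2:**
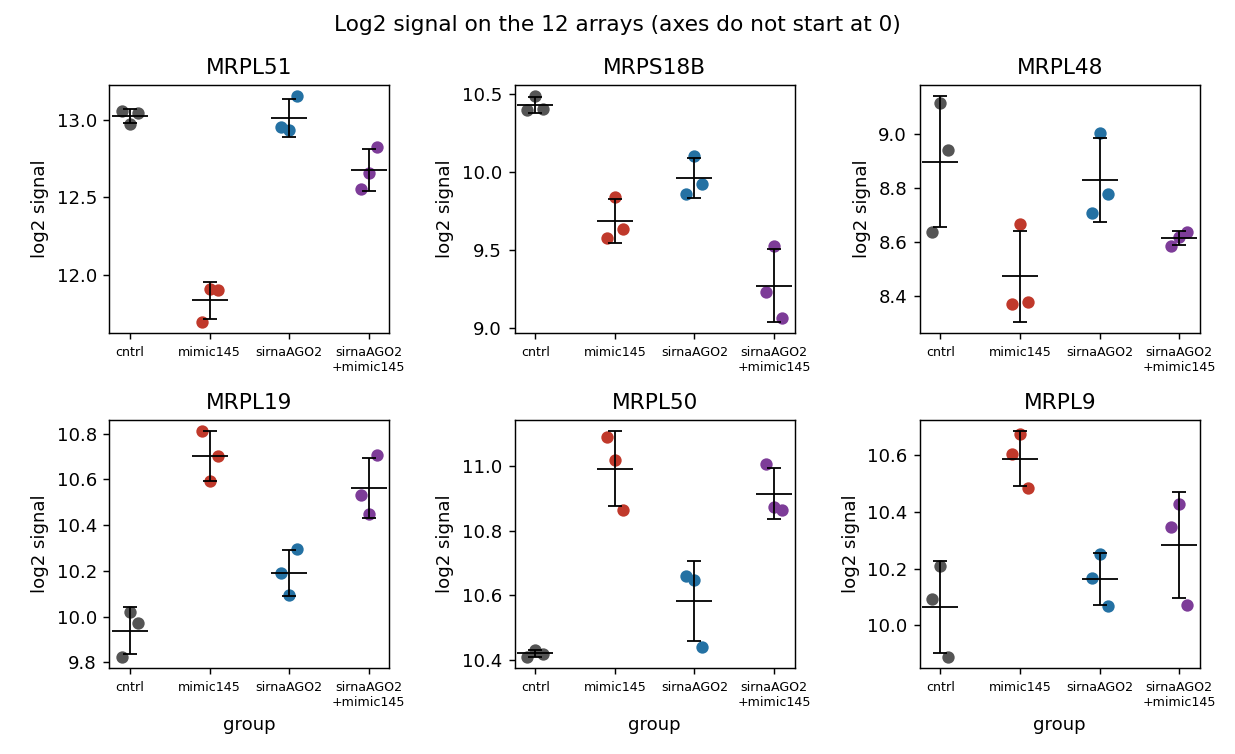
Normalized log2 signal of 6 mitochondrial ribosomal protein genes on each of the 12 arrays, by group; points are arrays and bars the mean ± SD of 3 arrays. MRPL51 lies at 11.70 to 11.91 in mimic145, at 12.55 to 12.82 with both agents and at 12.93 to 13.15 with silencing alone, whereas MRPS18B is lower with either treatment and lowest with both.

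The large and the small subunit were compared next. With the mimic in control cells, 21 of 49 large subunit genes passed (42.9%, 16 higher, 5 lower) and 8 of 28 small subunit genes (28.6%, 7 higher, 1 lower). Of all genes 22.6% passed, 11.6% higher and 11% lower. Within the replicate pairs, the median change was 0.18 ± 0.07 for the large and 0.14 ± 0.05 for the small subunit (SD, n = 3 pairs). The difference of the medians was 0.05, 0.00 and 0.07 in the 3 pairs, with a mean of 0.04 ± 0.03, and stayed between 0.01 and 0.06 in the alternatives. In silenced cells the same difference was 0.00 ± 0.04, and for silencing alone it was -0.02 ± 0.05, within the spread between pairs. Counted by origin, 19 of 48 members with a bacterial counterpart passed (39.6%, 16 higher, 3 lower), with a median of 0.15, and 10 of 29 without one (34.5%, 7 higher, 3 lower), with the same median of 0.15. By place in the large subunit, 7 of 8 genes of the central protuberance passed (87.5%, where 22.6% of all genes did), in a list of only 8 genes. Of these 5 rose, among them MRPL27 and MRPL55, and MRPL40 and MRPL48 fell. At the exit tunnel 3 of 8 passed (37.5%), with MRPL22 higher and MRPL17 and MRPL23 lower. In the stalk and its base 2 of 5 passed (40%), MRPL10 and MRPL53, both higher.

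Across the arrays, each gene was centred on its mean over the 12 arrays and the median over the 77 genes was taken. It was 0.14, 0.11 and 0.09 on the mimic145 arrays and between -0.07 and -0.01 on the other 9. Thus the 3 mimic145 arrays stood above all others, and the sirnaAGO2+mimic145 arrays (-0.05, -0.02 and -0.02) lay within the range of the arrays without the mimic. The share of spots well above background was 66.7%, 61.6% and 77.3% on the mimic145 arrays, and 71.6%, 67.6% and 73.4% on the cntrl arrays. It was 71.0%, 69.1% and 74.1% on the sirnaAGO2 arrays, and 67.9%, 60.5% and 70.8% with both agents. Whether this share bears on the medians was not tested.

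**Figure D3:**
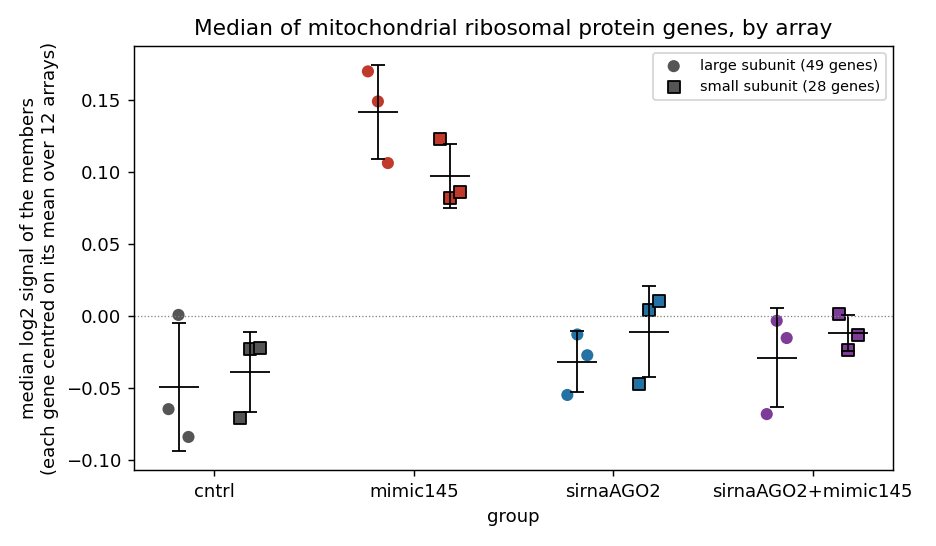
Median over the large (circles) and the small subunit genes (squares) of the log2 signal, each gene centred on its mean over 12 arrays; points are arrays and bars the mean ± SD of 3. In mimic145 the medians lie between 0.08 and 0.17 and in the other groups between -0.08 and 0.01.

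In Ago2-silenced cells few of these genes, and few of all genes, passed with the mimic. By limma 4 of 77 passed (5.19%, where 7.27% of all genes passed), and 13 had an unadjusted p under 0.05 (16.9%, where 28.8% of all genes did). MRPL19 and MRPL50 rose, where 4.24% of all genes did, and MRPS18B and MRPL51 fell, where 3.03% did. These 4 had also passed in control cells, in the same direction. MRPL55, next by p, had a log2 change of 0.25 (limma adjusted p = 0.0679). The median over the members was -0.02, beside 0.02 over all genes, and 32 of 77 were higher, where this held for 54.1% of all genes. All 3 arrays with the mimic lay above those without it for 4 members, where this held for 13.9% of all genes, and below for 12 members, where this held for 10.2% of all genes. In this comparison scaling by the 75th percentile set the median of all genes at 0.11 and that of the members at -0.01. The count depended on the processing, with 9 after normexp correction or with the authors' log2 table, and 1 without the replicate block. It was 1 without replicate 1, and 0 without replicate 2 or 3. With a single array left out it was 1 without any of the sirnaAGO2 arrays, 1 or 2 without any of the sirnaAGO2+mimic145 arrays, and 2 without cntrl replicate 2. These alternative counts are given without the share of all genes under the same setting.

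Passing in one background only does not establish a difference, so the mimic's effect in silenced cells minus that in control cells was tested for each gene. By limma 0 of 77 members passed (0.011% of all genes passed, 0.00548% higher and 0.00548% lower), and 26 had an unadjusted p under 0.05 (33.8%, where 16.8% of all genes did). Of these 26, 23 had a lower effect of the mimic in silenced cells and 3 a higher one. The median difference over the members was -0.17, beside 0.02 over all genes, and 64 of 77 were below 0. Of all genes tested, 8550 of 18252 were below 0. MRPL51 came closest, with a difference of 0.85 (standard error 0.11, limma adjusted p = 0.0512), and passed in 5 of the alternatives, which were normexp correction, the authors' log2 table, the stricter filter on dim probes, the slide as a random block and the intensity trend. By the methods' t-test MRPL51 was under 0.05 unadjusted, but not after adjustment. The adjusted p for MRPL51, difference of the mimic effects, ran from 0.0143 to 0.481 over the alternatives. In the 3 pairs its difference was 0.96, 0.79 and 0.81. The next by p were MRPL9 (-0.40, limma adjusted p = 0.0979), MRPS9 (-0.40, limma adjusted p = 0.102), MRPL22 (-0.33, limma adjusted p = 0.136) and MRPL28 (-0.31, limma adjusted p = 0.138), a counterpart of bacterial L28. The members' changes in control cells enter this difference, and the comparisons share arrays, so the counts are not independent of those above.

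**Figure D4:**
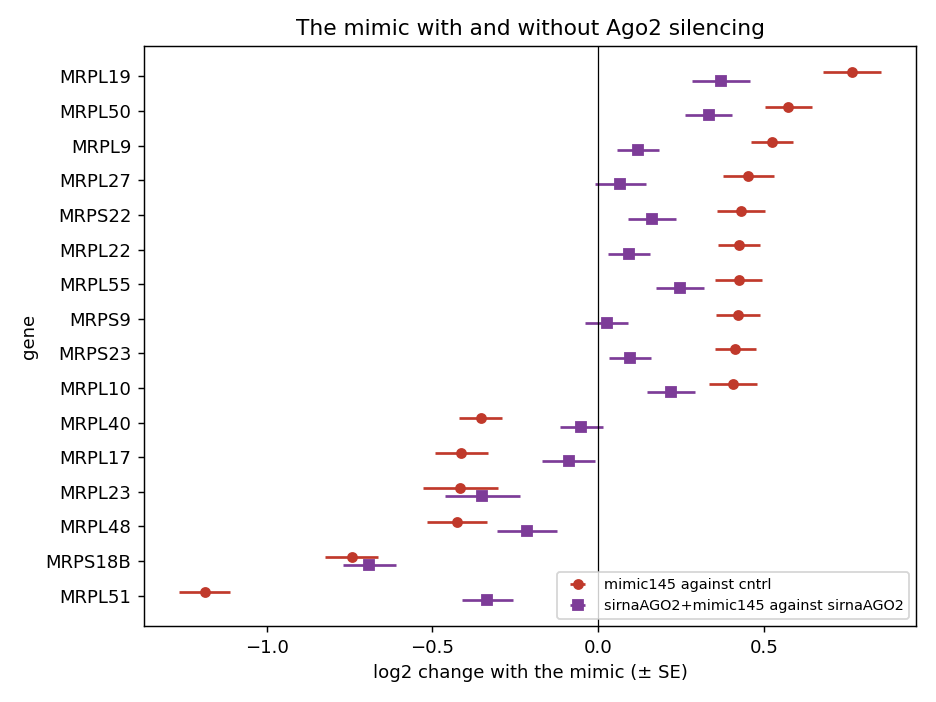
Log2 change with the mimic (± SE from limma) of the 16 named mitochondrial ribosomal protein genes, in control cells (circles) and in Ago2-silenced cells (squares). MRPS18B is at -0.74 and -0.69, whereas MRPL51 is at -1.19 and -0.33 and MRPS9 at 0.42 and 0.02.

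Silencing of AGO2 was then compared without and with the mimic. Without it, 1 of 77 members passed by limma (1.30%, where 2.58% of all genes passed), MRPS18B, which fell, where 1.69% of all genes fell and 0.888% rose. It did not pass without cntrl replicate 1, without cntrl replicate 3, or without any single one of the sirnaAGO2 arrays (0 members each). All 3 arrays lay above those of cntrl for 10 members, where this held for 8.48% of all genes, and below for 4, where this held for 10.6%. The next by p were MRPS9 (0.22, limma adjusted p = 0.120), MRPL32 (0.25, limma adjusted p = 0.158), MRPL19 (0.25, limma adjusted p = 0.166) and MRPL16 (-0.24, limma adjusted p = 0.166). The median over the members was 0.02, beside -0.03 over all genes, and 10 members had an unadjusted p under 0.05 (13.0%, below the 19.0% of all genes). With the slide as a random block by limma, 0 passed, and the unadjusted p was under 0.05 for 4. The share of all genes in this and the other alternatives is not given.

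With the mimic present, the members were mostly lower after silencing: 63 of 77 had a lower mean in sirnaAGO2+mimic145 than in mimic145, with a median of -0.16, beside 0.00 over all genes. Of all genes tested, 9093 of 18252 had a lower mean. By limma 5 of 77 passed (6.49%, where 4.31% of all genes passed) and 39 had an unadjusted p under 0.05 (50.6%, where 21.5% of all genes did). MRPL51 rose by 0.84 (limma adjusted p = 0.00233), where 1.86% of all genes rose and 2.44% fell. The 4 that fell were MRPS18B (-0.41), MRPL53 of the stalk (-0.35), MRPL9 (-0.31) and MRPL28 (-0.27), with limma adjusted p-values from 0.0263 to 0.0409. For 29 members all 3 sirnaAGO2+mimic145 arrays lay below all 3 mimic145 arrays, where this held for 8.56% of all genes, and for 1 they lay above, where this held for 6.22%. The count of 5 was 16 after normexp correction, 14 with an intensity trend and 15 with the stricter filter on dim probes, and 1 without the replicate block or with the slide as a random block. It was 0 without replicate 1, 2 or 3, 6 without cntrl replicate 3, and 1 to 3 without any other single array. The share of all genes under each of these settings is not given, so these counts do not describe the members alone. This comparison shares the mimic145 arrays with the first one, with opposite sign.

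The spread between arrays differed among members. The median SD within a group was 0.10 in cntrl and in mimic145, 0.09 after silencing and 0.11 with both agents. MRPL33, the counterpart of bacterial L33, had the largest SD in mimic145, 0.77, with 12.59, 11.46 and 12.93 on the 3 arrays. Its 3 probes changed with the mimic by -1.87, -0.20 and 0.18, and the gene did not pass (-0.63, limma adjusted p = 0.0871). MRPS14 read 9.39 on 1 of the sirnaAGO2+mimic145 arrays and 10.42 and 10.53 on the others, and had a log2 change with the mimic of 0.54 in control cells (limma adjusted p = 0.118). MRPS33, MRPS15 and MRPS18A each had 1 probe far below the others, at -1.51, -1.67 and -0.87 with the mimic in control cells, with the rest between -0.19 and 0.76. The 5 genes of this paragraph so far were picked out by their values. Of the 29 members that passed in control cells, 25 had every kept probe in the gene's direction. RefSeq lists pseudogenes, matched by symbol, for 41 members, among them MRPL51, MRPS18B and MRPL50, and a probe's match to such copies was not tested.

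The mitochondrial ribosome is built and served by further nuclear genes, which were described as lists. Of 5 subunits whose symbols follow no MRPL or MRPS rule, 3 rose with the mimic in control cells (60%, where 11.6% of all genes passed as higher). They were DAP3 (0.29), the GTP-binding protein of the small subunit, AURKAIP1 (0.36) and GADD45GIP1 (0.34), with limma adjusted p-values of 0.0190, 0.0182 and 0.0177. Of 29 assembly factors, 10 passed, 9 higher and 1 lower. The largest of these changes were in NGRN (0.78), needed for the large ribosomal RNA, MPV17L2 (0.73), an inner membrane protein, and ERAL1 (0.43), a chaperone of the small ribosomal RNA. In control cells this was 34.5% of the list, where 22.6% of all genes passed, and in silenced cells 1 of the 29 passed (3.45%, below the 7.27% of all genes).

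The other lists passed at or below the share of all genes, 22.6%, or little above it. Of 14 translation factors 2 passed in control cells (14.3%). GFM1, the elongation factor that moves the ribosome along the message, rose by 0.37 (limma adjusted p = 0.0161) and GFM2, its relative in ribosome recycling, fell by 0.76. Of 19 measured genes for charging mitochondrial tRNAs, out of 20 listed, 5 passed (26.3%), 4 higher and 1 lower. Among those that rose were QRSL1 (0.40), a subunit of the enzyme that completes glutaminyl-tRNA, and FARS2 (0.29), the phenylalanyl-tRNA synthetase (limma adjusted p = 0.0221 and 0.0166). Of 13 nuclear regulators of mitochondrial genes 3 passed (23.1%). PPARGC1A, a coactivator of mitochondrial biogenesis, fell by 0.46 (limma adjusted p = 0.00346), TFAM, which packages mitochondrial DNA, fell by 0.38 (limma adjusted p = 0.0375), and GABPB2, a subunit of the factor GABP, rose by 0.37 (limma adjusted p = 0.0433). The cytosolic ribosomal protein genes, which share the function but not the organelle, had 7 of 86 passed (8.14%) and all 7 lower, among them RPL39L (-0.97), RPL22L1 (-0.50) and RPL21 (-0.46), with a median of -0.02 over the list. The list counts in control cells were unstable. Of 28 alternatives, 14 gave a markedly lower count for the tRNA genes, 13 for the regulators and 12 for the cytosolic genes. For the 5 further subunits it was 11, for the translation factors 10 (with 3 markedly higher) and for the assembly factors 8. Every list fell to 0 in some alternative. The share of all genes in the same alternatives is not given.

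**Figure D5:**
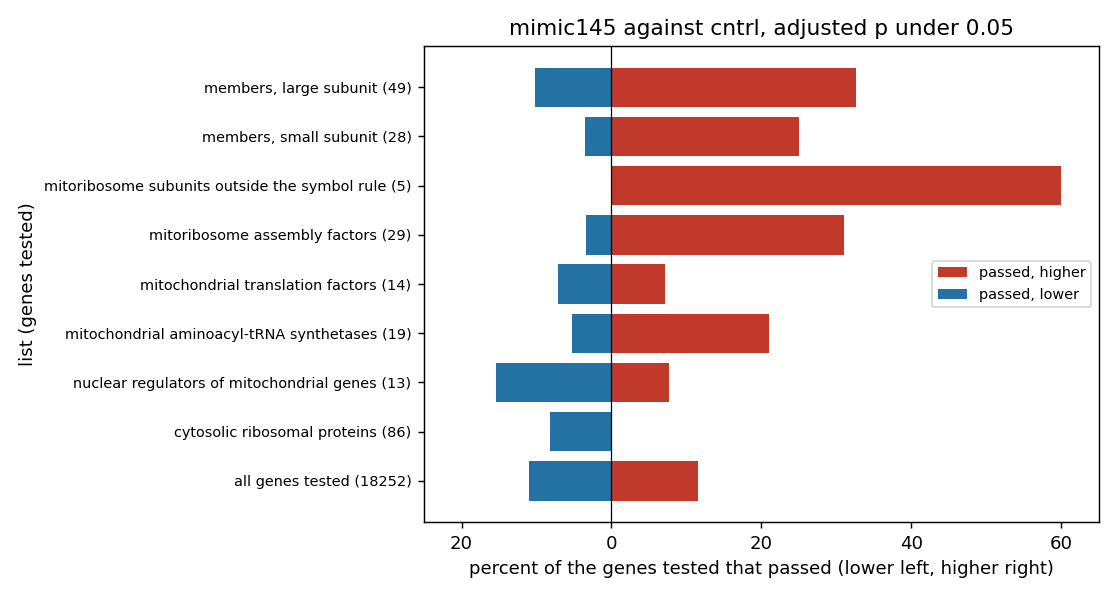
Percent of the genes tested in each list that passed in mimic145 against cntrl by limma at an adjusted p under 0.05, higher to the right of 0 and lower to the left, with the number of genes tested in parentheses. All genes tested stand at 11.6% higher and 11% lower.

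Promoters were read from RefSeq's windows of 300 bases, from 250 before to 50 after the start of a gene. They were given for 69 of the 77 members. The letters searched, on both strands, were CCGGAAGT for GABP, AAGATGGCG for YY1, and the core of the binding motif of NRF1, a regulator of mitochondrial genes. The NRF1 letters were in the windows of 9 of 69 members (13.0%, against 6.98% of 27305 genes), the GABP letters in 12 (17.4%, against 4.95%), and the YY1 letters in 13 (18.8%, against 2.14%). At least 1 of the 3 was held by 31 members (44.9%, against 12.8% of the 27305 genes). These 27305 are all genes with a window and include genes not tested on the arrays. The members were thus not set against genes of comparable expression. Of the 19 risen members with a window, 2 held the NRF1, 4 the GABP and 5 the YY1 letters, and of the 5 fallen members with a window 1 held each. A match is a description of letters and not of a bound site.

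The windows around the match are shown for 4 named members, of which the first pair fell and the second pair rose, to set the same letters in genes of opposite direction beside each other. They read 5′ to 3′ on the strand of the gene, in GRCh38.p14 as RefSeq gives it, with the matched letters in capitals.
MRPL51, GABP: gcgctccaaaACTTCCGGcaggcggacc
MRPS18B, YY1: ggcgtacgtcAAGATGGCGgcgtctgtat
MRPS22, GABP: ggcccggaagACTTCCGGccctttccgc
MRPL50, YY1: gatctcatcgAAGATGGCGgcgcgatctg
The window of MRPL51 is chr12:6493365-6493392 on the minus strand and that of MRPS18B chr6:30617853-30617881 on the plus strand. The window of MRPS22 is chr3:139343904-139343931 on the plus strand and that of MRPL50 chr9:101398577-101398605 on the minus strand. In MRPL51 and MRPS22 the GABP letters are on the opposite strand, 120 and 80 bases before the start. In MRPS18B and MRPL50 the YY1 letters begin 23 bases after it.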

How the data were processed

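RNA was hybridised by the authors to 1-colour exon arrays, which were read with Feature Extraction 10.7.3.1. The deposited files hold the processed signal, a background-corrected intensity for 420288 spots per array, not normalized across arrays. A table of quantile normalized log2 values, made and deposited by the authors, served as an alternative. Here the processed signal was quantile normalized over the 12 arrays after setting values under 1 to 1 (there were none), and log2 transformed, without a pseudocount. Control and outlier spots were left out, and no spot was saturated. Probes were kept if every array of some group had them well above background. A gene was the mean of its kept probes, which were assigned by transcript accession (89.9% of 233164 probes) through RefSeq.

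With limma 3.58.1 in R 4.3.3, 1 linear model with a term for group and a block for replicate number was fitted to 18252 genes on the 12 arrays. Tests were two-sided and adjusted by Benjamini-Hochberg over all genes, and genes passed under 0.05. The numbers pair the samples: deviations from the group means correlated at 0.148 to 0.576 for 18 pairs of arrays with the same number. The range was -0.497 to 0.201 for 36 pairs of different number and different group. The 18 pairs include those that share a slide, which were not set apart. The number of arrays limits the precision, with a median standard error of 0.10 for a log2 difference. Tested on simulated data with 200 genes changed by 1 in mimic145 against cntrl, the fit found 87.5% of them, and called 0 of 18252 genes where none was changed. Nearly all changes of the members were smaller than 1, so the 87.5% does not give the power for them. The simulated noise was independent between genes and arrays, apart from the replicate block. The correlation within slides, 0.394 in the data, was not part of it, so the 0 calls do not cover it. Genes were named by a rule: members that passed and moved alike in all 3 pairs, up to 10 in each direction, and where under 5 passed, those of lowest p until 5 were named. Up to 3 passing genes were named in a list. The members and lists were chosen with earlier results of these data known. Alternatives were other scalings, filters and sources of values, the median over probes, no block, the slide as a random block, fewer arrays, an intensity trend, the methods' t-test, a threshold of 0.01, and each replicate or array left out. Seed sites of miR-145-5p and proteins were not analysed here. The values of 1 passing gene of the lists are not reported here.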

Additional observations from a re-analysis of the deposited data

Results flagged for a closer look

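For 7 named genes, silencing of AGO2 moved all 3 replicate pairs one way without the mimic and the opposite way with it. The values that follow are the difference between the effects, with the limma adjusted p of that difference, and none of the 7 passed. Higher after silencing without the mimic and lower with it were MRPL9 (-0.40, adjusted p = 0.0979), MRPS9 (-0.40, adjusted p = 0.102), MRPL22 (-0.33, adjusted p = 0.136), MRPS23 (-0.32, adjusted p = 0.147), MRPL27 (-0.39, adjusted p = 0.149) and MRPL50 (-0.24, adjusted p = 0.274). MRPL40 was lower without the mimic and higher with it (0.30, adjusted p = 0.168). For MRPS9, the silencing effect was 0.22 without the mimic and -0.18 with it. All 7 had been named for their change between cntrl and mimic145. Those arrays enter the silencing effects with opposite sign, so the choice of genes itself favours opposite directions. Further members outside the named genes met the same rule, and its share over all genes was not computed.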

How the results depend on the processing

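Of 1031 recomputed values for the 37 results on single named genes, 807 kept their direction and side of the threshold, 205 kept the direction but no longer passed, 18 newly passed, the methods' t-test without adjustment included, and 1 reversed. The value that reversed was MRPL17, mimic145 against cntrl, at 0.079 with the median over probes. The numbers of members that passed follow. For mimic145 against cntrl, 29 became 39 with normexp, 36 with the authors' table, 40 with the stricter filter, 35 with an intensity trend, 33 with the slide as a random block, 17 without the replicate block, 11 from only the arrays compared, 16 at an adjusted p under 0.01, 0 by the methods' t-test after adjustment and 7 to 31 with a replicate or array left out. For sirnaAGO2+mimic145 against sirnaAGO2, 4 became 9 with normexp or the authors' log2 table, 8 with the stricter filter, 1 without the replicate block, 0 from only the arrays compared, 1 under 0.01, 15 by the t-test unadjusted and 0 adjusted, and 0 to 4 with a replicate or array left out. For sirnaAGO2 against cntrl, 1 became 0 without the replicate block, with the slide as a random block and under 0.01, 14 by the t-test unadjusted and 0 adjusted, and 0 to 1 with a replicate or array left out. For sirnaAGO2+mimic145 against mimic145, 5 became 16 with normexp, 9 with the authors' table, 15 with the stricter filter, 14 with an intensity trend, 1 with the median over probes, without the replicate block, with the slide as a random block and under 0.01, 0 from only the arrays compared, 18 by the t-test unadjusted and 0 adjusted, and 0 to 6 with a replicate or array left out. For the difference of the mimic effects, 0 became 2 with normexp or the stricter filter, 1 with the authors' table, the slide as a random block or the trend, and 15 by the t-test unadjusted. The causes were not tested. By the t-test unadjusted, silencing alone gave 18.2% of members and 17.5% of all genes, which are near each other. The mimic in silenced cells gave 19.5% and 14.2%, silencing with the mimic 23.4% and 12.1%, and the difference of the mimic effects 19.5% and 10.3%. The other counts in this paragraph are given without the share of all genes under the same setting. Dim probes limit what can be read from genes such as MRPL17.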
